A study of Mus musculus with 20 samples.

Results

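The genotype effect over both treatments is the difference between Sirt2 knockout and wild-type liver, averaged over unexposed and cold-exposed mice. It was taken from an additive model of genotype and treatment over all 20 of the 20 liver libraries of the study, 10 from knockout and 10 from wild-type mice, with 1 library per mouse. The wild-type mice were C57BL/6 mice without treatment (Control, n = 5) or with intermittent cold exposure (CE, n = 5), and the knockout mice, made on a C57BL/6 background, were untreated (Sirt2-/-, n = 5) or cold-exposed (Sirt2-/-/CE, n = 5). Mice were 5 weeks old at the start, and cold exposure meant 4 °C for 3 h per day during 3 weeks. The knockout was made by injecting Cas9 ribonucleoprotein into fertilized eggs, with exons 5 to 7 of Sirt2 as the target, so every tissue carries it from conception. The wild-type mice were bought from a supplier and the number of founders of the knockout line is not given in the sources used here, so another difference between the lines cannot be told apart from the deletion. All mice of an experiment were of 1 sex, which the labels do not give. Replicates are numbered 1 to 20 across the groups and are not paired.

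SIRT2 is an NAD-dependent deacetylase of the cytoplasm that removes acetyl groups from tubulin, from metabolic enzymes and from transcription factors. In the liver its known substrates lie in glucose and lipid metabolism, and SIRT2 has also been tied to the acetylation of NF-kB, a driver of the acute-phase response. A main effect of genotype asks which transcripts differ between the lines on average over both treatments, and a response that is found in 1 treatment only enters it at a reduced size.

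Libraries held 35499796 to 53917339 counted reads, with a median of 45090551 in wild-type and 39324212 in knockout mice. Levels are given as CPM, counted reads scaled to a common library size with TMM, and fold changes as log2 of knockout over wild type with the standard error (SE). P-values come from edgeR's quasi-likelihood test, two-sided, with Benjamini-Hochberg adjustment over the 15616 genes tested, and a gene was called at an adjusted p under 0.05. The hepatocyte markers, summed over 8 genes, lay at 95600 to 168000 CPM in wild-type and 80000 to 161000 CPM in knockout mice, as in liver. The summed level of 16 female-biased liver genes was 53.3 to 256.6 CPM in all mice but Control replicate 3 (638.5 CPM) and Sirt2-/-/CE replicate 20 (2080 CPM), and its part in the results was not tested. No source says whether mice of a group shared a cage, litter or day, so the p-values measure the spread between these mice.

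The targeted gene was reported first. Sirt2 (ENSMUSG00000015149) lies at chr7:28766735-28788661 on the forward strand of GRCm38. The target exons 5 to 7 hold 206 bases, 11.2% of the transcript the study targeted. Exons 6 and 7 are shown because they make up most of the coding sequence that was targeted, and because reads from the rest of the transcript still count towards the gene.
Sirt2 exon 6, chr7:28776996-28777102: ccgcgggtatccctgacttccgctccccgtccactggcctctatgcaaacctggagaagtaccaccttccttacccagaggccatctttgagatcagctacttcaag
Sirt2 exon 7, chr7:28777191-28777247: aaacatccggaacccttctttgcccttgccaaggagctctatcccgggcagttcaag

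Sirt2 stood at 42.4, 41.6, 44.5, 41.3 and 41.5 CPM in the Control mice and at 43.4, 45.2, 56.2, 40.2 and 48 CPM in the CE mice. It stood at 17.3, 21.3, 26.6, 27.5 and 16.9 CPM in the Sirt2-/- mice and at 27.5, 19.4, 20.8, 19 and 21.1 CPM in the Sirt2-/-/CE mice. Every knockout library lay under every wild-type library, and transcript from the locus was still counted in all 10 knockout mice. The log2 fold change was -1.03 (SE 0.10, adjusted p = 3.31e-05), a 2.04-fold lower level, with -0.96 in unexposed and -1.11 in cold-exposed mice. Sirt2 stayed called in each of the 20 fits that left out 1 library. Of the 30 other tested genes that start within 500 kb of Sirt2, 0 were called by edgeR (0.173% of all genes were), 5 had an unadjusted p under 0.05, beside 13.1% of all genes, and the lowest adjusted p was 0.221.

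Over all genes, 27 of 15616 changed with genotype, which is 0.173%, with 5 higher (0.032%) and 22 lower (0.141%) in the knockout. The median log2 fold change of all tested genes was 0.02. An unadjusted p under 0.05 was reached by 2042 genes (13.1%), 1170 higher (7.49%) and 872 lower (5.58%). Without TMM scaling, by library size alone, the median of all genes moved to 0.14, and 7 genes were called higher and 11 lower. The split also moved with the method: DESeq2 called 104 higher and 125 lower, limma voom 19 and 18, and limma on log2(FPKM + 1) 8 and 6. The count of calls moved with the removal of single mice: 6 genes were called without Sirt2-/- replicate 12, 8 without CE replicate 7, 11 without Sirt2-/-/CE replicate 16 and 14 without Sirt2-/- replicate 14. There were 15 calls without CE replicate 8, CE replicate 10, Sirt2-/- replicate 15 or Sirt2-/-/CE replicate 19, 16 without Control replicate 2, and 17 without Sirt2-/-/CE replicate 17 or 18.

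The 27 genes had the same sign of change in the unexposed and in the cold-exposed mice, each fitted alone, and 26 of them had an unadjusted p under 0.05 in both fits. The model and the threshold favour such genes, so this is a description of what was called. Of the 27, 6 also passed the threshold in the unexposed mice alone, and 21 passed it in neither treatment alone. The lowest adjusted p of the interaction among them was 0.521. Only Fgfr1, with -1.41 (SE 0.17) in unexposed and -0.65 (SE 0.33) in cold-exposed mice, lacked an unadjusted p under 0.05 in 1 treatment, the cold (unadjusted p = 0.0751, adjusted p = 0.922, edgeR).

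**Figure D1:**
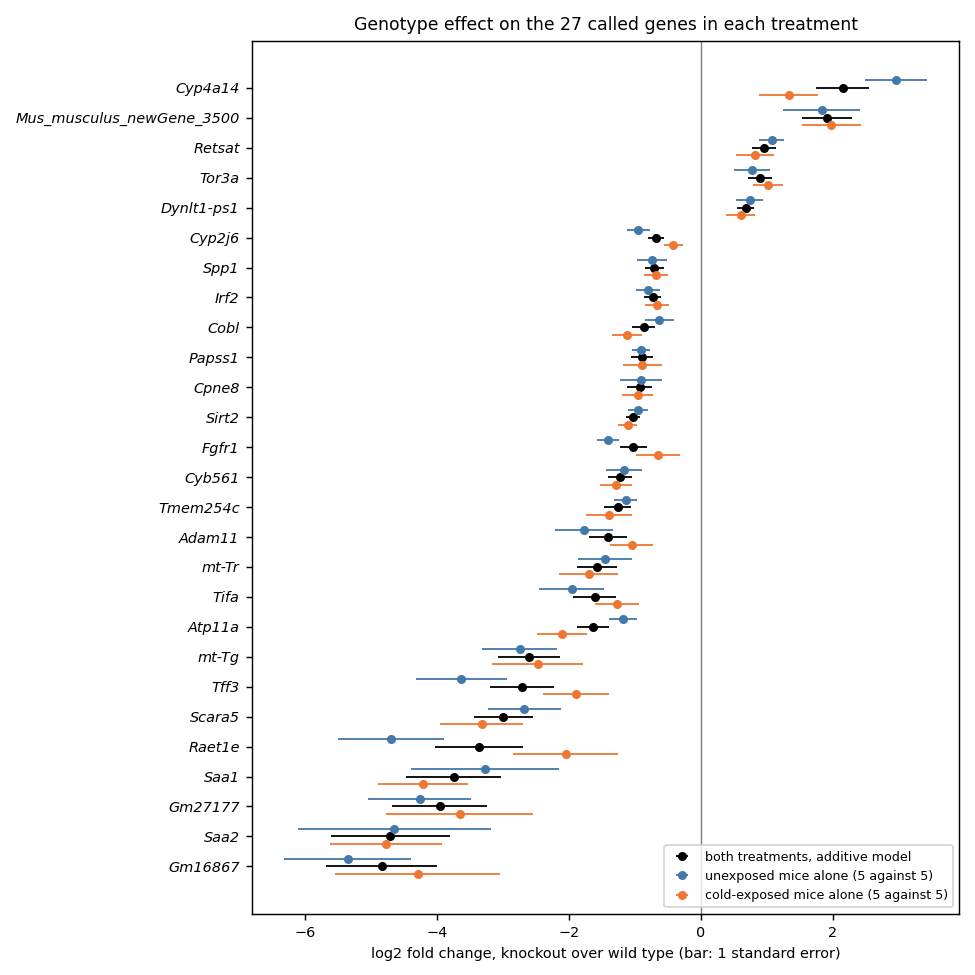
The log2 fold change of knockout over wild type for the 27 called genes, with bars of 1 SE, from the additive model over 20 libraries (black) and from 10 unexposed (blue) and 10 cold-exposed libraries (orange) fitted alone. All 3 estimates of each gene lie on the same side of 0, 5 genes to the right and 22 to the left.

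The genes that separated the genotypes without overlap were few. Over all 15616 genes, 4 (0.0256%) had every knockout library on one side of every wild-type library, and all 4 were lower in the knockout and among the called genes: Sirt2, Atp11a, Scara5 and Cyb561. These 4 and Tmem254c were the genes that stayed called under all 11 alternative fits and all 20 fits without a library. They were also the 5 genes that stayed called when a score of the circadian clock entered the model.

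Scara5, a scavenger receptor that takes up ferritin, fell most of these. Its level was 10.2, 11.2, 41.9, 41.5 and 12 CPM in Control and 10.2, 31.7, 48.2, 20.9 and 13.3 CPM in CE mice. In the knockouts it was 4.06, 7.41, 1.39, 2.27 and 3.08 CPM without and 1.09, 3.79, 5.66, 0.724 and 1.09 CPM with cold. The wild-type mice spread over a wide range, yet the highest knockout mouse, Sirt2-/- replicate 12, was under the lowest wild-type mouse. The log2 fold change was -3.00 (SE 0.45, adjusted p = 0.00511), an 8.0-fold lower level.

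Atp11a, a flippase that moves phospholipids to the inner leaflet of the plasma membrane, was at 13.7, 16, 15.4, 19.3 and 11.5 CPM in Control and 14.2, 26.4, 33.6, 33.2 and 26.9 CPM in CE mice. It was at 7.45, 6.64, 5.14, 5.20 and 9.25 CPM in Sirt2-/- and 2.33, 8.22, 10.1, 6.88 and 3.70 CPM in Sirt2-/-/CE mice. The knockout mice all lay under the wild-type mice, by a narrow margin between Sirt2-/-/CE replicate 18 and Control replicate 5. The log2 fold change was -1.64 (SE 0.24, adjusted p = 0.00511), with -1.18 (SE 0.21) in unexposed and -2.10 (SE 0.38) in cold-exposed mice. On the opposite strand, 2 annotated genes share under 2% of its exon bases each, and the handling of strand in the counting is not given in the sources used here.

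Cyb561, a membrane cytochrome that passes electrons from ascorbate, was at 6.02, 6.32, 15.8, 10.3 and 9 CPM in Control and 5.77, 13, 12.1, 7.58 and 14.2 CPM in CE mice. The 10 knockout mice lay between 2.92 and 4.86 CPM, a tight range beside that of the wild type. The fitted log2 fold change was -1.22 (SE 0.18, adjusted p = 0.00511). An unnamed antisense gene, Gm9910, shares 10.3% of the exon bases of Cyb561.

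Tmem254c codes for a small membrane protein of a family with 3 near-identical copies on chromosome 14, at chr14:26063919-26067355 for this copy. It was at 61.8, 59.9, 42.2, 43.8 and 45.4 CPM in Control, 24.2, 91.3, 43.9, 93.1 and 99.0 CPM in CE, 24.7, 25.3, 27.7, 21.5 and 16.1 CPM in Sirt2-/- and 36.6, 24.0, 23.1, 26.6 and 23.3 CPM in Sirt2-/-/CE mice. CE replicate 6 lay among the knockout mice and the other 9 wild-type mice lay above all of them. Its log2 fold change was -1.27 (SE 0.20, adjusted p = 0.00868). A stretch of 1211 bases is identical to Tmem254a and to Tmem254b, so the split of reads between the copies is uncertain. The log2 fold changes of these 2 copies were -1.52 (SE 0.45, adjusted p = 0.178) and -1.25 (SE 0.51, adjusted p = 0.31), and single libraries were listed at 0 CPM for a copy while the others were not: CE replicate 8 for Tmem254b and Sirt2-/-/CE replicate 20 for Tmem254a.

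**Figure D2:**
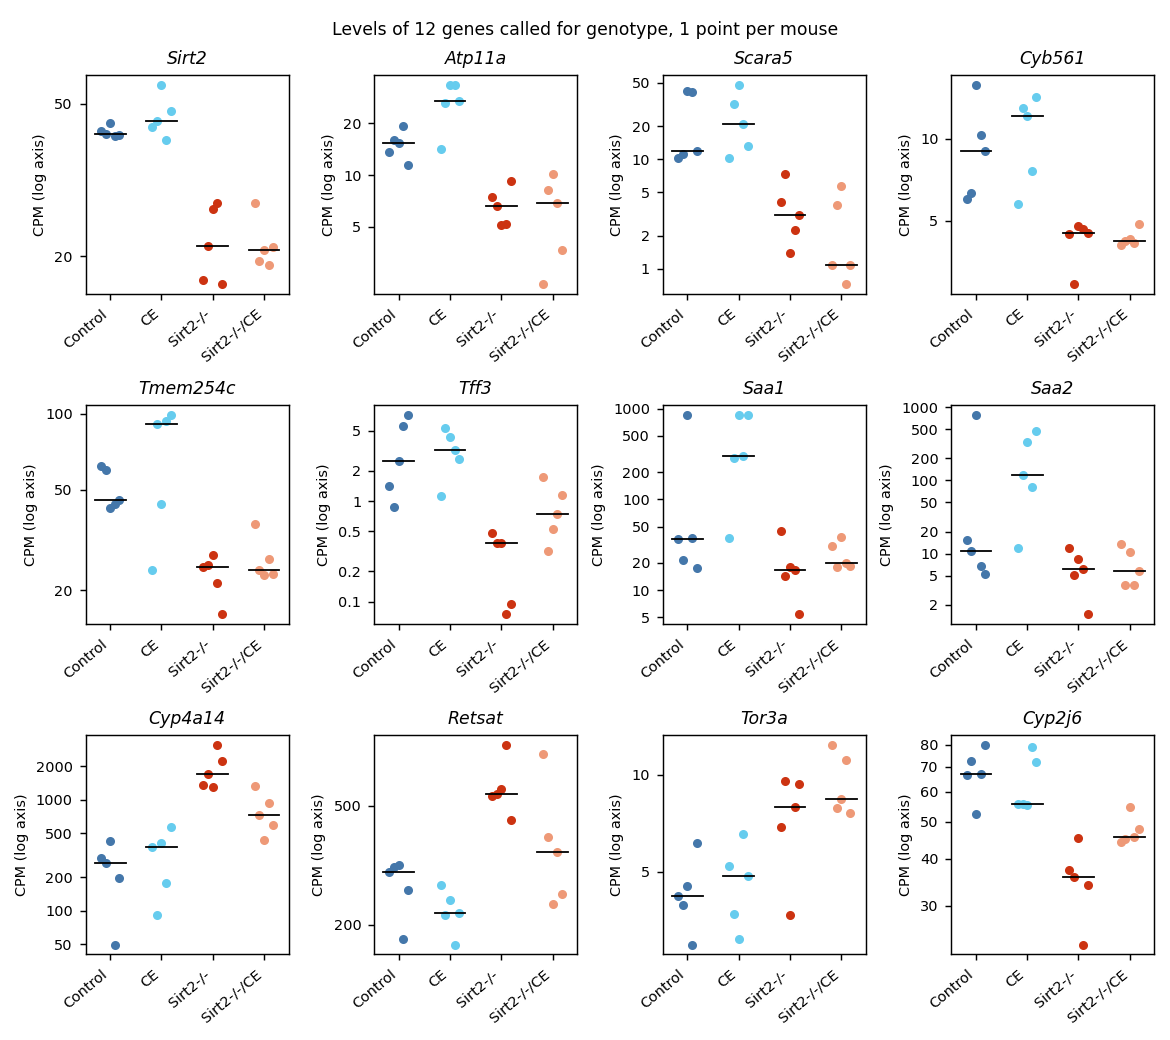
CPM on a log axis for 12 of the called genes in the 4 groups, with 1 point per mouse and a line at the median of each group. Sirt2, Atp11a, Scara5 and Cyb561 show no overlap of the genotypes, and Saa1 and Saa2 show a wild-type spread from the level of the knockouts to over 700 CPM.

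Among the 22 lower genes were 2 acute-phase genes, Saa1 and Saa2. Saa1 and Saa2 code for serum amyloid A, which the liver secretes into the blood during inflammation. Saa2 (chr7:46751790-46754313) was at 15.2, 10.8, 793, 6.86 and 5.31 CPM in Control and 12.1, 117, 337, 81.4 and 472 CPM in CE mice. The 10 knockout mice held 1.48 to 13.6 CPM. Saa1 (chr7:46740497-46742980) was at 36.4, 21.5, 848, 37.3 and 17.5 CPM in Control and 37.6, 288, 848, 300.0 and 858 CPM in CE mice, against 5.40 to 44.7 CPM in the knockouts. Control replicate 3 and CE replicates 7 to 10 lay above every knockout mouse for both genes, as did Control replicate 1 for Saa2, by a narrow margin, and the remaining wild-type mice lay within the range of the knockouts. The log2 fold changes were -4.71 (SE 0.90) for Saa2 and -3.75 (SE 0.72) for Saa1, each with an adjusted p of 0.0346. Each was called in 7 of the 20 fits without 1 library, and without Control replicate 3 the log2 fold changes were -2.94 for Saa2 (adjusted p = 0.23) and -2.59 for Saa1 (adjusted p = 0.20).

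The stretches 120 to 51 bases before the RefSeq start of the 2 genes are shown because the genes moved together and are near copies. Capitals mark the bases that differ or have no partner in the other gene.
Saa1, chr7:46743031-46743100, reverse strand: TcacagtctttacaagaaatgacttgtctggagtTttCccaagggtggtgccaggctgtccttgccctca
Saa2, chr7:46751713-46751782, forward strand: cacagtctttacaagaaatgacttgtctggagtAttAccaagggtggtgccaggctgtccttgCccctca
Of 71 aligned columns, 67 were identical (94.4%). The transcripts match at 96.7% over 2448 bases, so reads of the pair may have been split between them. Both windows come from RefSeq on GRCm38.p6.

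The wider list of acute-phase and secreted liver proteins had 31 members tested, of which 2 were called lower and 0 higher. Its median log2 fold change was -0.30, against 0.02 over all genes, and 11 members had an unadjusted p under 0.05 in the lower direction (35.5%, beside 5.58% of all genes) against 0 in the higher. Its median stayed below 0 under the 4 other scalings and with the clock score in the model. Lcn2 (lipocalin 2, an iron-trapping protein of inflammation) was at -3.30 (SE 0.83, adjusted p = 0.142) and Orm3 (an orosomucoid) at -2.49 (SE 0.55, adjusted p = 0.0905); neither passed. Lcn2 reached 291 CPM in Control replicate 3, 111 in CE replicate 8 and 143 in CE replicate 10, and at most 22.6 CPM in a knockout mouse. Mt1 and Mt2, metallothioneins that bind zinc and respond to stress, reached 1070 and 841 CPM in Control replicate 3 and 705 and 515 CPM in CE replicate 8, and were not called, with adjusted p-values of 0.24 and 0.242. Lcn2, Orm3, Mt1 and Mt2 were picked for mention after their values were seen.

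Tifa, an adaptor that links innate immune receptors to TRAF6 and NF-kB, fell by 1.61 on the log2 scale (SE 0.32, adjusted p = 0.0433). It ranged from 9.63 to 67.1 CPM in the wild type, with the highest value in Control replicate 3, and from 3.85 to 10.7 CPM in the knockouts. Tff3, a trefoil peptide secreted by mucous epithelia, fell by 2.71 (SE 0.48, adjusted p = 0.0236), from 0.871 to 7.25 CPM in the wild type to 0.0749 to 1.76 CPM in the knockouts. The genotypes overlapped for both genes. Tifa was called in 7 and Tff3 in 18 of the 20 fits without 1 library, and Tff3 lost its call without CE replicate 7 or Sirt2-/- replicate 12.

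Other lower genes fall outside the rule by which genes were chosen and are named here after their values were seen. Irf2, a repressor of interferon signalling, stood at 33.5 to 60.4 CPM in the wild type and 18.3 to 36.3 CPM in the knockouts (log2 fold change -0.73, SE 0.13, adjusted p = 0.0224), and was called in all 20 fits without a library. Fgfr1, a receptor of fibroblast growth factors, changed by -1.03 (SE 0.21, adjusted p = 0.0433). Papss1, which makes the sulfate donor of sulfotransferases, changed by -0.89 (SE 0.16, adjusted p = 0.0236), and its wild-type mice lay at 9.26 to 16.3 CPM except for CE replicate 7 at 4.27 CPM, against 4.66 to 7.13 CPM in the knockouts. Cobl, an actin nucleator, changed by -0.87 (SE 0.17, adjusted p = 0.0346), and Cpne8, a calcium-dependent membrane-binding protein, by -0.93 (SE 0.19, adjusted p = 0.0494). Raet1e, a ligand of the NKG2D receptor on natural killer cells, changed by -3.37 (SE 0.67, adjusted p = 0.0423), with 4.49, 5.12 and 7.77 CPM in Control replicates 1 to 3 and under 2 CPM in all other mice. It shares exons and a stretch at 96.0% identity with Raet1d, so its count is uncertain. Adam11, a member of the ADAM family without protease activity, changed by -1.41 (SE 0.29, adjusted p = 0.0494). Of the 20 fits without 1 library, Papss1 was called in 18, Cobl in 8, Raet1e and Adam11 in 5 each, Fgfr1 in 3 and Cpne8 in 2.

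Cyp2j6, an epoxygenase of fatty acids, fell by 0.68 (SE 0.12, adjusted p = 0.0236), from 52.6 to 79.9 CPM in the wild type to 23.7 to 54.8 CPM in the knockouts. It was the 1 called member among 32 tested drug-metabolizing cytochromes P450, of which 6 were lower and 2 higher at an unadjusted p under 0.05 (5.58% and 7.49% of all genes were, and 0.141% were called lower), a list with a median of -0.03 whose sign turned under upper-quartile scaling, by library size alone and on FPKM. Spp1, osteopontin, which bile duct cells and macrophages secrete, fell by 0.71 (SE 0.15, adjusted p = 0.0494), with 32.7 to 70.4 CPM in the wild type and 20.5 to 39.7 CPM in the knockouts. It shares 18.8% of its exon bases with Gm42793 on the same strand, so its count is uncertain. It was called in 4 of the 20 fits without 1 library and in 4 of the 11 alternative fits. It was the 1 called member of 5 tested cholangiocyte markers, beside 0.141% of all genes called lower. The epithelial markers of this list were not called, with log2 fold changes of 0.12 (SE 0.27) for Krt19 and -0.21 (SE 0.24) for Epcam.

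The 5 higher genes included 2 of lipid and retinol metabolism. Cyp4a14, a fatty acid omega-hydroxylase and a textbook target of the nuclear receptor PPARalpha, was at 296, 269, 423, 49.6 and 199 CPM in Control and 372, 91.4, 408, 178 and 563 CPM in CE mice. It was at 1370, 1700, 1290, 3120 and 2230 CPM in Sirt2-/- and 1340, 732, 432, 939 and 598 CPM in Sirt2-/-/CE mice. In unexposed mice every knockout was above every wild type, and under cold only Sirt2-/-/CE replicate 18 fell within the range of the CE mice. The fitted log2 fold change was 2.15 (SE 0.40, adjusted p = 0.0298), with 2.96 (SE 0.47) in unexposed and 1.33 (SE 0.45) in cold-exposed mice, and the difference between these was not called (interaction adjusted p = 0.521). The call was lost in 7 of 20 fits, those without Control replicate 1, 2 or 5, CE replicate 7, Sirt2-/- replicate 12 or 15, or Sirt2-/-/CE replicate 16, with an adjusted p of at most 0.0782.

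Retsat, which saturates retinol and is also a PPAR target, was at 300.0, 312, 318, 180.0 and 261 CPM in Control and 271, 216, 242, 172 and 219 CPM in CE mice. It was at 538, 549, 568, 799 and 450 CPM in Sirt2-/- and 745, 393, 235, 350.0 and 254 CPM in Sirt2-/-/CE mice. The unexposed genotypes were apart and the cold-exposed ones overlapped. Its log2 fold change was 0.95 (SE 0.18, adjusted p = 0.0346), and the gene was called in 8 of 20 fits without a library. An antisense gene, Gm45053, shares 18.4% of its exon bases.

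The remaining higher genes were low in level. Tor3a, an interferon-inducible ATPase of the endoplasmic reticulum, ranged from 2.97 to 6.57 CPM in the wild type and from 3.66 to 12.4 CPM in the knockouts (log2 fold change 0.90, SE 0.18, adjusted p = 0.0441). Dynlt1-ps1, a processed pseudogene, ranged from 1.44 to 2.87 and from 2.65 to 4.72 CPM (0.67, SE 0.14, adjusted p = 0.0433), and because 342 of its bases are identical to Dynlt1a, Dynlt1c and Dynlt1f its count is uncertain. Mus_musculus_newGene_3500, a transcript predicted by the authors with no annotated symbol, ranged from 0.262 to 3.23 and from 1.96 to 16.6 CPM (1.91, SE 0.38, adjusted p = 0.0423). All 3 overlapped between genotypes and were called in 2 or 3 of the 20 fits without 1 library.

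Some of the called genes split the wild-type mice among themselves. These are mt-Tg and mt-Tr, the mitochondrial genes of the glycine and arginine tRNA, and Gm16867 and Gm27177 on chromosome 14. The sequences of the tRNA genes are shown because 68 bases each carry the call and the genes between and beside them do not.
mt-Tg, chrM:9391-9458, forward strand: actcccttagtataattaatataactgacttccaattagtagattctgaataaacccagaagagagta
mt-Tr, chrM:9808-9875, forward strand: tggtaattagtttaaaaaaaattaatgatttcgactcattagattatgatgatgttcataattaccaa
The level of mt-Tg was 1.92, 3.59, 5.48, 0.392 and 4.43 CPM in Control and 0.338, 5.16, 0.537, 3.76 and 3.46 CPM in CE mice, against 0.295 to 0.894 CPM in the knockouts. The level of mt-Tr was 2.66, 5.04, 5.13, 1.01 and 3.65 CPM in Control and 1.38, 5.29, 1.24, 5.04 and 3.28 CPM in CE mice, against 0.653 to 1.97 CPM in the knockouts. Control replicate 4 and CE replicates 6 and 8 lay within the range of the knockouts for both genes, and the other 7 wild-type mice lay above it. The log2 fold changes were -2.61 (SE 0.46, adjusted p = 0.0236) and -1.58 (SE 0.31, adjusted p = 0.0384).

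Their neighbours on the mitochondrial genome were not called: mt-Co3 was at -0.09 (SE 0.10), mt-Nd3, which lies between them, at -0.09 (SE 0.13) and mt-Nd4l at -0.26 (SE 0.34). Of 20 mitochondrial tRNA genes tested, these 2 were called (0.141% of all genes were called lower), 4 others were lower at an unadjusted p under 0.05, beside 5.58% of all genes, and mt-Tk was higher (0.61, SE 0.26, adjusted p = 0.324). All 13 protein-coding genes of this genome had log2 fold changes below 0, with a median of -0.17 and 0 called by edgeR. Libraries were enriched for polyadenylated RNA, so counts on tRNA genes do not measure mature tRNA. The call of mt-Tg was lost without CE replicate 7 or Sirt2-/- replicate 12, and mt-Tr was called in 4 of 20 such fits.

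Gm16867 (chr14:69363504-69503362) was at 5.96, 8.71, 6.27, 0.124 and 2.69 CPM in Control and 0, 6.76, 0.0849, 1.55 and 1.48 CPM in CE mice, and at most 0.237 CPM in a knockout. Gm27177 (chr14:69582164-69683286) was at 3.97, 4.56, 3.21, 0.227 and 1.99 CPM in Control and 0.0241, 4.77, 0.0566, 1.43 and 1.42 CPM in CE mice, and at most 0.35 CPM in a knockout. Again Control replicate 4 and CE replicates 6 and 8 were within the range of the knockouts. The log2 fold changes were -4.84 (SE 0.84, adjusted p = 0.0224) and -3.96 (SE 0.72, adjusted p = 0.0236), both lost without CE replicate 7 or Sirt2-/- replicate 12. The genes are copies, identical over 2946 bases, and lie antisense to Entpd4 and Entpd4b, which were at -0.43 (SE 0.13, adjusted p = 0.209) and -0.36 (SE 0.12, adjusted p = 0.245). Both have a mean below 1 FPKM and are named after their values were seen.

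A further block, seen after the values were known, split the wild-type mice in another way. Of 13 tested genes from Zfp37 to Zfp618, over 950 kb at chr4:62189540-63139708, all had log2 fold changes below 0, with a median of -2.46. The edgeR test called 0 of them (0.141% of all genes were called lower), 10 were lower at an unadjusted p under 0.05, beside 5.58% of all genes, and the lowest adjusted p was 0.0983. Zfp618, a zinc finger gene, was at 0.769, 1.76, 1.97, 684 and 195 CPM in Control and 14.1, 196, 28.3, 142 and 1.72 CPM in CE mice, and at 0 to 13.3 CPM in the knockouts. Rgs3, a regulator of G protein signalling, was at 6, 8, 8.36, 774 and 198 CPM in Control and 32.5, 181, 25.3, 147 and 5.26 CPM in CE mice, and at 4.92 to 24.8 CPM in the knockouts. Control replicates 4 and 5 and CE replicates 7 and 9 were the high mice for Zfp618, Rgs3, Fkbp15, Cdc26 and Prpf4. Of these, Control replicate 4 was among the low mice for mt-Tg and the other 3 were not. No knockout mouse reached their level in these genes.

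**Figure D3:**
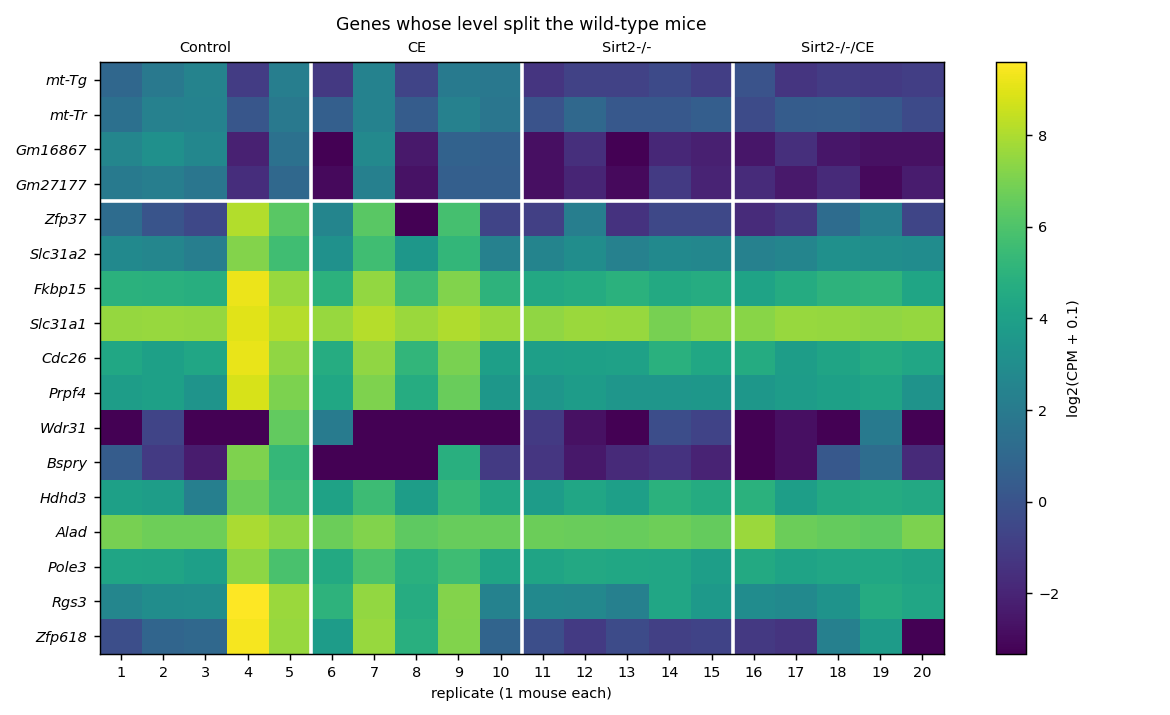
Heat map of log2(CPM + 0.1) for 17 genes in rows and the 20 mice in columns by group, with mt-Tg, mt-Tr, Gm16867 and Gm27177 above the line and the 13 genes from Zfp37 to Zfp618 in chromosomal order below it. Control replicate 4 and CE replicates 6 and 8 are dark in the upper rows, and Control replicates 4 and 5 and CE replicates 7 and 9 are bright in most of the lower rows.

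Gene lists that bear on liver metabolism had small median differences. Targets of PPARalpha and enzymes of fatty acid oxidation had 43 members tested, of which 1, Cyp4a14, was called higher and 0 lower. The median was 0.17, 33 members lay above 0, and 10 had an unadjusted p under 0.05 in the higher direction (23.3%, beside 7.49% of all genes) against 0 in the lower. The median was -0.01 in unexposed mice and 0.30 in cold-exposed mice. Acot1, an acyl-CoA thioesterase, was at 1.08 (SE 0.26, adjusted p = 0.114), Vnn1, a pantetheinase, at 0.94 (SE 0.23, adjusted p = 0.139), and Cpt2, which imports fatty acids into mitochondria, at 0.40 (SE 0.10, adjusted p = 0.142). They did not pass the test and are named after their values were seen, as are Nsdhl, Scd1, Pkm, Mki67 and Arntl below.

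Cholesterol synthesis had 26 genes tested, with 25 log2 fold changes below 0, a median of -0.45 and 0 calls. An unadjusted p under 0.05 was reached by 13 in the lower direction (50%, beside 5.58% of all genes) and 1 in the higher (3.85%, beside 7.49%). The median was -0.74 in unexposed and -0.16 in cold-exposed mice, and it stayed below 0 under each scaling. In mean centred log2 CPM, the list was at 0.28, 0.06, -0.72, -1.83 and -1.22 in Sirt2-/- replicates 11 to 15. It was at -0.435 to 0.845 in Control mice, so Sirt2-/- replicates 11 and 12 lay within the Control range and replicates 13, 14 and 15 below it. The gene with the lowest p, Tm7sf2, a sterol reductase, was at -0.63 (SE 0.20, adjusted p = 0.209). Nsdhl, a sterol dehydrogenase, was at 4.80 and 5.81 CPM in Sirt2-/- replicates 14 and 15, and at 21.2 to 128 CPM in the other 18 mice. Fatty acid and triglyceride synthesis had 31 genes tested, a median of -0.27 and 0 calls by edgeR, with 5 lower (16.1%) and 0 higher at an unadjusted p under 0.05. The sign of its median differed between treatments, at -0.59 in unexposed and 0.10 in cold-exposed mice. Its lowest p was that of Acss2, which makes acetyl-CoA from acetate, at -1.52 (SE 0.21) in unexposed and -0.28 (SE 0.31) in cold-exposed mice. Scd1, the stearoyl-CoA desaturase, was at 119 to 1470 CPM in Sirt2-/- mice against 2560 to 10100 CPM in Control mice, and at 1080 to 5120 CPM in Sirt2-/-/CE against 1100 to 6470 CPM in CE mice. The unexposed genotypes were apart for Scd1 and the cold-exposed ones overlapped.

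Genes of protein folding were counted next. Of 30 tested genes of endoplasmic reticulum chaperones and the unfolded protein response, 24 lay above 0, 9 were higher at an unadjusted p under 0.05 (30.0%, beside 7.49% of all genes) and 0 were called, with a median of 0.22, from 0.49 in unexposed to 0.03 in cold-exposed mice. Creld2, induced by stress of that compartment, was at 1.43 (SE 0.40, adjusted p = 0.151). Of 21 heat shock and cold-inducible genes, 17 lay above 0, 9 were higher at an unadjusted p under 0.05 (42.9%) and 0 were called, with a median of 0.39. Hspa1b, an inducible HSP70, was at 1.36 (SE 0.45, adjusted p = 0.234). Of 13 tubulins and tubulin deacetylases, whose protein products include the best-known substrate of SIRT2, 12 lay above 0, with a median of 0.26 and 0 calls by edgeR, 2 genes higher at an unadjusted p under 0.05 (15.4%) and the lowest p in Tuba8 (1.52, SE 0.51, adjusted p = 0.24).

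The genes of energy metabolism that the study set out to examine were counted against the shares over all genes, 0.173% called and 13.1% at an unadjusted p under 0.05. At the first of these shares, 0 calls in a list of this size is not a result about the list. Of 27 tested glycolysis genes, 0 were called by edgeR and 0 had an unadjusted p under 0.05, with a median of 0.07. The same 2 counts were 0 for the 18 genes of the study's own metabolic heat map (median -0.09), for 77 nuclear-encoded subunits of the respiratory complexes (median -0.01) and for 61 cytosolic ribosomal proteins (median 0.00). By treatment, the medians of these lists had opposite signs. They were -0.04 in unexposed and 0.14 in cold-exposed mice for glycolysis and -0.12 and 0.03 for the heat-map genes. They were -0.27 and 0.24 for the respiratory subunits and -0.29 and 0.28 for the ribosomal proteins. In mean centred log2 CPM, Sirt2-/-/CE replicates 16 and 20 were the highest of the 20 mice, at 0.83 and 0.47 for the subunits and 0.999 and 0.38 for the ribosomal proteins. Sirt2-/-/CE replicates 17, 18 and 19 were at -0.24, -0.22 and -0.03, and at -0.20, -0.40 and -0.13. The heat-map genes were chosen by the study on these samples and are not independent of them. The medians of the heat-map genes and the respiratory subunits turned above 0 by library size alone and on FPKM. Pkm, the pyruvate kinase gene of the heat map, was at -0.55 (SE 0.45, adjusted p = 0.639), between 6.51 and 161 CPM in the wild type, with the highest value in CE replicate 6, and between 14.9 and 42.0 CPM in the knockouts. The other sirtuins were not called, and Sirt5 had the lowest p of these (0.27, SE 0.13, adjusted p = 0.381).

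**Figure D4:**
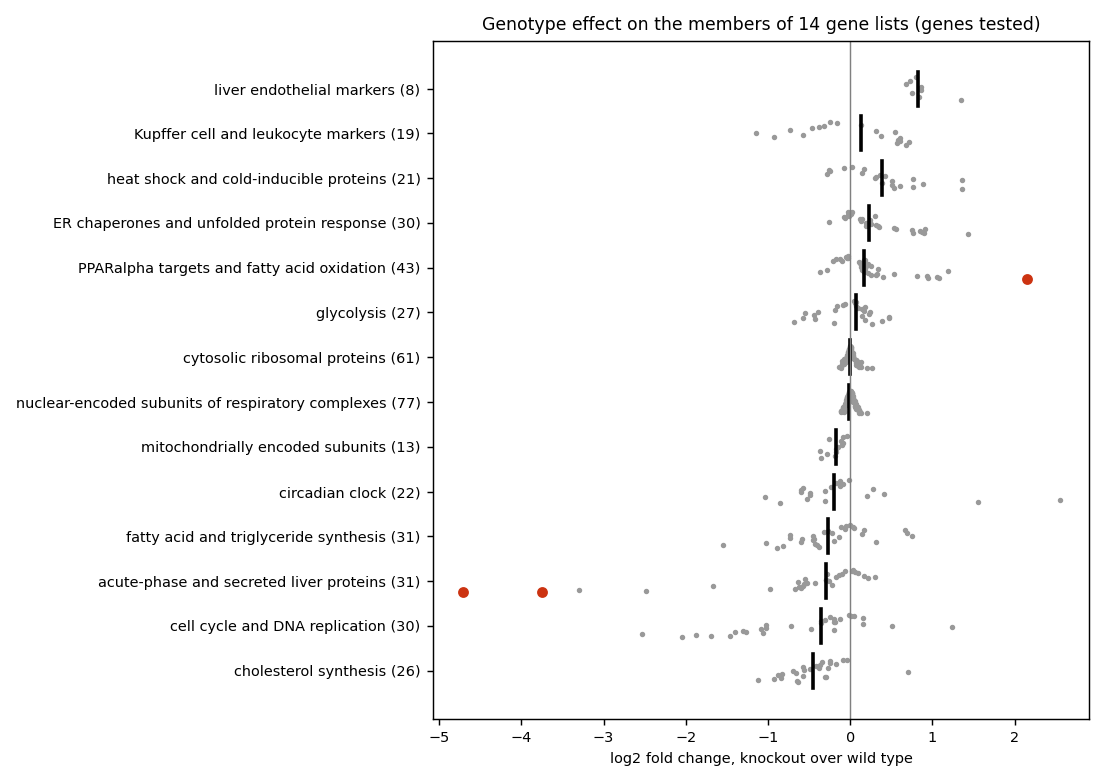
The log2 fold change of the genotype term for each tested member of 14 gene lists (grey points), with called members in red, a black line at the median of each list and the number of genes tested in parentheses. The red points are Cyp4a14, Saa1 and Saa2, the medians run from -0.45 for cholesterol synthesis to 0.82 for liver endothelial markers, and ribosomal proteins and respiratory subunits lie close to 0 in this term, with medians of opposite sign in the 2 treatments. For both of these lists, Sirt2-/-/CE replicates 16 and 20 held the highest mean centred log2 CPM of the 20 mice.

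Markers of other liver cell types were counted in the same way. All 8 liver endothelial markers lay above 0 and had an unadjusted p under 0.05, beside 7.49% of all genes in the higher direction, with a median of 0.82 and 0 calls by edgeR. Lyve1, the hyaluronan receptor of sinusoidal endothelium, was at 2.38 to 15.2 CPM in the wild type and 5.11 to 23.8 CPM in the knockouts (1.35, SE 0.35, adjusted p = 0.142). The summed level of the 8 genes ranged from 47.0 to 300.3 CPM in the wild type and from 135 to 414 CPM in the knockouts, with group medians of 230.3 in Control, 128 in CE, 293 in Sirt2-/- and 280.2 in Sirt2-/-/CE. The median log2 fold change was 0.33 in unexposed and 1.25 in cold-exposed mice, and CE replicate 8 and Control replicate 4 held the lowest sums. Of 19 Kupffer cell and leukocyte markers, 10 lay above 0 and 9 below, with medians of -0.07 in unexposed and 0.14 in cold-exposed mice. Of these markers, 6 had an unadjusted p under 0.05, all higher (31.6%), and 0 were called, with Clec4f, the Kupffer cell lectin, at 0.68 (SE 0.22, adjusted p = 0.22). In bulk tissue, more cells of a type and more RNA per cell cannot be told apart, and the part of cell composition in the genotype effect was not tested. Pancreatic and muscle markers summed to at most 19.4 and 1.35 CPM in any mouse, and adipocyte markers rested on Car3, with 6 of 8 members under 1 CPM in every mouse.

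Of 30 tested genes of the cell cycle, 24 lay below 0 with a median of -0.36 and 0 calls, and 10 had an unadjusted p under 0.05, all lower (33.3%, beside 5.58% of all genes). Plk1, a mitotic kinase, was at -2.05 (SE 0.56, adjusted p = 0.151). Mki67, a marker of dividing cells, reached 23.0 CPM in CE replicate 6 and 8.18 CPM in CE replicate 9, and lay between 0.15 and 3.31 CPM in all other mice.

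Clock genes differed between mice of the same group. The clock score, in centred log2 CPM, set the mean of Ciart, Dbp, Nr1d2, Per3 and Tef against that of their activators Arntl, Clock and Npas2. It ran from 1.33 to 3.36 in Control, -4.52 to 2.42 in CE, -6.48 to 2.17 in Sirt2-/- and -4.69 to 0.87 in Sirt2-/-/CE mice. Sirt2-/- replicates 14 and 15, Sirt2-/-/CE replicate 19 and CE replicate 9 lay under -4. Of 22 tested clock genes 0 were called by edgeR and 1 had an unadjusted p under 0.05, beside 0.173% and 13.1% of all genes. Arntl, the activator of the clock also known as Bmal1, was at 1.55 (SE 0.76, adjusted p = 0.394), with 3.24 in unexposed and -0.06 in cold-exposed mice. With the score as a covariate, 5 genes were called and all 27 kept their direction, 21 of them within 0.2 of their log2 fold change. In a fit chosen after the data were seen, without the 4 mice under -4, Sirt2 was the 1 gene called (-1.05, adjusted p = 0.000284), while Scara5 was at -2.81 (adjusted p = 0.116), Tmem254c at -1.14 (adjusted p = 0.232), Atp11a at -1.67 and Cyb561 at -1.32 (both adjusted p = 0.0593). That fit had 9 wild-type and 7 knockout mice. The time of day at which the livers were taken is not given in the sources used here, and its part in the genotype effect was not tested.

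**Figure D5:**
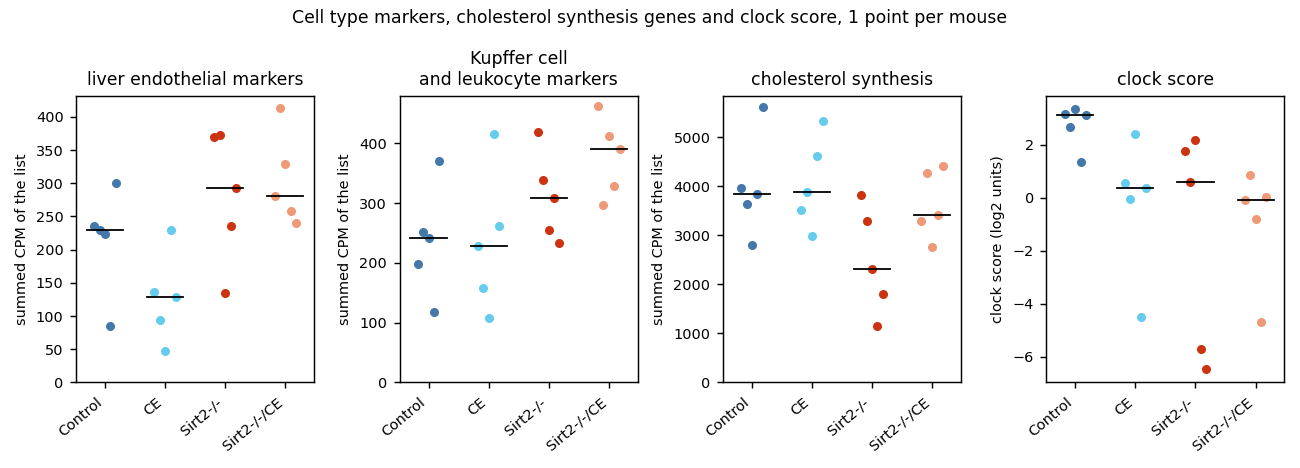
The summed CPM of liver endothelial markers, Kupffer cell and leukocyte markers and cholesterol synthesis genes, and the clock score in log2 units, with 1 point per mouse in the 4 groups and a line at the group median. The knockout medians of both marker sums lie above the wild-type medians, and 4 mice lie under a clock score of -4, 2 of them Sirt2-/-.

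Finally, the genotype effect was counted in each treatment alone. In unexposed mice alone, 29 genes were called (0.186%), 4 higher and 25 lower in Sirt2-/- than in Control. The split was closer to even under the other fits, with 251 higher and 294 lower by DESeq2, 187 and 210 by limma voom, and 60 and 79 by edgeR with all 20 libraries in 1 fit. In cold-exposed mice alone edgeR called 0 (0.0%), with 903 at an unadjusted p under 0.05, while DESeq2 called 83 and limma voom 2. The interaction gave 0 calls by edgeR (0.0%), with 1303 at an unadjusted p under 0.05, 41 calls by DESeq2 and 0 by limma voom. The count in unexposed mice was 0 without Control replicate 1, 6 without Control replicate 2 or 5 or Sirt2-/- replicate 12, 8 without Sirt2-/- replicate 15, 50 without Control replicate 4 and 101 without Sirt2-/- replicate 13. In cold-exposed mice it was 3 without CE replicate 6 and 1 without Sirt2-/-/CE replicate 16, and the interaction gave 2 without Control replicate 4.

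Of the 29 genes called in unexposed mice, 16 (55.2%) had the same sign in the cold-exposed mice, which share no library with them, against 56.1% of all tested genes, and 6 of the 16 had an unadjusted p under 0.05 there. The 6 were Sirt2, Tmem254a, Tmem254c, Papss1, Cyp4a14 and Raet1e. Among the others, Sucnr1, the succinate receptor, was at -2.39 (SE 0.32) in unexposed and 0.01 (SE 0.43) in cold-exposed mice. Gstm2, a glutathione S-transferase, was at -1.26 (SE 0.15) and -0.05 (SE 0.43), Eif4e3, a cap-binding protein, at -1.86 (SE 0.23) and 0.04 (SE 0.37), and Gamt, the last enzyme of creatine synthesis, at -1.58 (SE 0.26) and 0.44 (SE 0.33). The adjusted p of the interaction was 0.251 for Sucnr1, 0.521 for Gstm2, 0.239 for Eif4e3 and 0.208 for Gamt, so the difference between treatments was not called for these genes, which were named after their values were seen. In the other direction, of 28 genes with an unadjusted p under 0.001 in cold-exposed mice, 25 (89.3%) had the same sign in unexposed mice and 12 of these an unadjusted p under 0.05.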

How the data were processed

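Liver mRNA of 20 mice was enriched on oligo(dT) beads and each mouse gave 1 Illumina library. The authors deposited a table of whole-number read counts per gene and of FPKM, scaled to gene length and depth, for each mouse. The submitters' processing notes give the build mm10, and the aligner, counter and handling of strand and multi-mapped reads are not given in the sources used here. The counts were tested as deposited. In the table, 9 lines held no gene and were left out, 1967 of 45306 genes were predicted by the authors, and 0 columns had no sample.

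Counts were filtered with filterByExpr by group (minimum count 10, minimum total 15), scaled by TMM and fitted in edgeR 4.0.16 under R 4.3.3 with treatment and genotype as terms. The common dispersion was 0.152. Each library kept 99.94% of its counts or more after the filter. Unexposed and cold-exposed mice were also fitted alone, and the interaction was tested over all mice. Alternatives used DESeq2 1.42.0, limma 3.58.1 (voom with sample quality weights, and log2 FPKM with a pseudocount of 1), other scalings, filters and model terms, and the removal of each mouse. The edgeR and limma voom fits of the additive model were also run on simulated counts. DESeq2 was not, and no result given here rests on that run. Precision was set by the spread between mice and by a depth of 35499796 to 53917339 counts, and low genes such as Raet1e and Gm27177 rest on few reads.

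Genes named were Sirt2, up to 10 called genes a direction, by size of change, whose FPKM averaged 1 or more and whose sign was the same in both treatments, up to 4 called members of each list or the 1 with the lowest p, and called interactions, with other names marked where given. The members and lists were chosen with earlier results of these data known. Symbols and positions came from GENCODE vM21 on GRCm38. Near-identical genes, with at least 95% identity over 150 bases or more, were searched with BLAST+ 2.17.0, and figures were drawn with matplotlib 3.10.9.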

Additional observations from a re-analysis of the deposited data

Results flagged for a closer look

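Within groups of 5 mice, the 27 called genes and the clock score gave 112 groups to examine for 1 mouse apart from the other 4. By Dixon's criterion 11 had one. That criterion flags about 1 in 20 groups by chance only if values are normal and groups independent. Some of these levels are skewed and some genes move together, so 11 of 112 cannot be read against that share. Control replicate 3 was highest for Saa2 (793 CPM), Saa1 (848 CPM) and Tifa (67.1 CPM). Control replicate 4 was lowest for Gm27177 (0.227 CPM) and highest for Mus_musculus_newGene_3500 (2.60 CPM), and CE replicate 6 was lowest for Atp11a (14.2 CPM). Sirt2-/- replicate 12 was lowest for Cyb561 (2.92 CPM) and Raet1e (0 CPM). Sirt2-/-/CE replicate 16 was highest for Sirt2 (27.5 CPM) and lowest for Cobl (8.42 CPM), and Sirt2-/-/CE replicate 17 was highest for Gm16867 (0.237 CPM).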

How the results depend on the processing

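The 27 called genes kept their direction in every alternative and every fit without 1 mouse in which they were tested. Against 27 called genes, DESeq2 called 229, 104 higher and 125 lower, which included all 27, no filter on low counts gave 17, limma on log2(FPKM + 1) gave 14 (8 higher, 6 lower), the clock score as a covariate 5, and the fit without the 4 mice with a clock score under -4, added after the data were seen, 1. The count was 37 with limma voom (19 higher, 18 lower, 14 of them among the 27), 22 to 29 with DESeq2 size factors, upper-quartile scaling, 10 counts in every library, no treatment term or 4 group means, 18 by library size alone, and 18 at a log2 fold change of at least 1. Without 1 mouse it was 6 to 28. In unexposed mice, 29 calls became 545 with DESeq2, 397 with limma voom, 139 with all 20 mice in 1 fit and 0 to 101 without 1 mouse. In cold-exposed mice, 0 became 83, 2, 2 and 0 to 3 in the same order. The interaction gave 0, 41 with DESeq2, 0 with limma voom and 0 to 2 without 1 mouse. The cause of these differences was not tested. With an unadjusted p under 0.001 in place of the threshold, 61.3% of 142 genes of the unexposed mice kept their sign in the cold, against 55.2%. List medians turned sign with the clock score for the circadian clock (-0.20), glucocorticoid response (-0.18) and gluconeogenesis (-0.17), and under a scaling for respiratory subunits (-0.01), among others. No paired analysis was possible because the groups share no replicate numbers.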
